A study of Mus musculus with 12 samples.

Results

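The genes described here carry Wnt signals from the cell surface to the nucleus. The rule that chose them uses names and no measured value, although it was written with earlier results of these data known. It took all protein-coding genes of GENCODE M21 whose symbols begin with Wnt or Fzd and a number, Rspo1 to Rspo4, and Lrp5, Lrp6, Dkk1, Dkk2, Dkk3, Axin1, Axin2, Ctnnb1, Tcf7, Tcf7l1, Tcf7l2 and Lef1. This gave 45 of 21951 protein-coding genes, of which 19 encode Wnt ligands, 10 Frizzled receptors, 4 R-spondins, 3 Dickkopf proteins, 2 co-receptors, 4 TCF/LEF factors and 3 β-catenin or Axin. Peaks that overlapped a member's gene body extended by 5 kb on both sides were taken as its peaks, which gave 276 of the 91354 peaks of the BGI peak set and 280 of the 87027 peaks of the Illumina peak set. All 45 members had at least 1 peak, with a median of 4 and a maximum of 34 on BGI, and every member peak passed the filter on low counts. A single peak in each set lay within reach of both Wnt6 and Wnt10a and was counted once.

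Chromatin accessibility was profiled by Omni-ATAC-seq, in which the transposase Tn5 cuts open DNA and tags it for sequencing. The cells were mouse embryonic fibroblasts (MEFs), sorted as Thy1+, and embryonic stem cells of the mouse (mESCs), which were Thy1-/Ssea1+/Epcam+, all untreated and of C57/Bl6 background, and the ages of the embryos were not given in the sources used here. From each cell type 3 libraries were made (MEF 1, 2 and 4; mESC 1, 3 and 5), and each of the 6 libraries was sequenced both on a DNBSEQ-G400 (BGI) and on a HiSeqX10 (Illumina), giving 12 samples in 4 groups. Between 20085886 and 21662775 reads fell in the peaks of a MEF sample on BGI and between 15860985 and 16911482 in those of an mESC sample (20127546 to 21441767 and 15996202 to 16958488 on Illumina). Levels are given as CPM, the reads of a peak scaled to 1000000 reads in peaks, so that 1 CPM stood for between 15.9 and 21.7 reads on BGI. At their promoters, all 6 of 6 mESC markers (Pou5f1, Nanog, Sox2, Esrrb, Zfp42 and Epcam) were higher in mESCs and all 6 of 6 MEF markers (Thy1, Col1a1, Col1a2, Pdgfrb, Twist1 and Prrx1) were higher in MEFs on both platforms. Thy1 and Epcam were used in the sort and are no independent check. Among markers of other cells, Sox17, Gata4, Eomes, Sox1 and Myod1 were also higher in mESCs and Gata6 was higher in MEFs on both platforms, the most open promoter peak of Pax6 was another one on each platform (higher on BGI, lower on Illumina), the 2 endothelial markers with a promoter peak were not called, and neither blood marker had one; what these promoters contribute to the differences below was not tested.

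Wnt proteins are secreted, lipid-modified ligands. They bind Frizzled receptors together with the co-receptors Lrp5 or Lrp6, which stops the Axin-based destruction complex from removing β-catenin (Ctnnb1), and β-catenin then joins TCF/LEF factors on DNA. R-spondins strengthen the signal by keeping receptors at the cell surface, and Dkk1 blocks it by binding Lrp5 and Lrp6. In mESCs this pathway supports self-renewal, with Tcf7l1 as a repressor of pluripotency genes, and in fibroblasts and mesenchyme Wnt5a is known for signaling without β-catenin.

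To show the DNA behind the strongest differences, the central 300 bases of 6 peaks are given below, namely the peak with the largest difference in each direction among the ligands and other secreted members, the receptors and the nuclear or cytoplasmic members, with peaks in untranslated regions (UTRs) passed over. All 6 are intronic, are printed 5′ to 3′ on the plus strand of GRCm38, and capitals mark matches to TGANTCA (AP-1), GGAATG or its complement (TEAD).
Wnt3a intron, chr11:59282129-59282428, higher in mESCs: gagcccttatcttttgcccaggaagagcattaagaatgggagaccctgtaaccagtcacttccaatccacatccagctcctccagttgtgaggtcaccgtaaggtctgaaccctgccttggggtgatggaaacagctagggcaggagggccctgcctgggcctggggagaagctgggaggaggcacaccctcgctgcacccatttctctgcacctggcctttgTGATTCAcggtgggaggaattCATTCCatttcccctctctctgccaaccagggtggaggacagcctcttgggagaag
Wnt11 intron, chr7:98851286-98851585, lower in mESCs: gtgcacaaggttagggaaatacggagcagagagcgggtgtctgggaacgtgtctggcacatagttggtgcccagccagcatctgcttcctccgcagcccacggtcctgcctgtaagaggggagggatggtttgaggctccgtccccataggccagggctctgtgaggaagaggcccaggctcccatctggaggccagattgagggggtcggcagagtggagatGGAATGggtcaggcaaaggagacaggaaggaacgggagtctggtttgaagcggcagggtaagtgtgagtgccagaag
Fzd3 intron, chr14:65245462-65245761, higher in mESCs: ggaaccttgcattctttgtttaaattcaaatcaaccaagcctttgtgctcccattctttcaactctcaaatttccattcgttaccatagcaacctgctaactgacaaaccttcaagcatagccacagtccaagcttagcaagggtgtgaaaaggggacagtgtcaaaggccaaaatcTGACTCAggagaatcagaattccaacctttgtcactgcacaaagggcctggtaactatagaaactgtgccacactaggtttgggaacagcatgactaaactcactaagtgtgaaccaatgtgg
Lrp5 intron, chr19:3642586-3642885, lower in mESCs: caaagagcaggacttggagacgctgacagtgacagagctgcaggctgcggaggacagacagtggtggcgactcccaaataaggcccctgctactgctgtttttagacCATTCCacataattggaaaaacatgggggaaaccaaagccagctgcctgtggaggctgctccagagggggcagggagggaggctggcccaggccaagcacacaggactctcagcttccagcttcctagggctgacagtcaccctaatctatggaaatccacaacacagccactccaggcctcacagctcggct
Tcf7l1 intron, chr6:72736865-72737164, higher in mESCs: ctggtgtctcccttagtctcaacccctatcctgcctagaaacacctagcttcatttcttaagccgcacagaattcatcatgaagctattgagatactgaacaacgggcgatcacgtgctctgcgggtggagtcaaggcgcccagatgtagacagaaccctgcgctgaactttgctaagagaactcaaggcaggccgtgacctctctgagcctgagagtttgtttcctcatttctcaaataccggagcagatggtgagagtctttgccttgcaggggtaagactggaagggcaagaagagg
Tcf7l2 intron, chr19:55749744-55750043, lower in mESCs: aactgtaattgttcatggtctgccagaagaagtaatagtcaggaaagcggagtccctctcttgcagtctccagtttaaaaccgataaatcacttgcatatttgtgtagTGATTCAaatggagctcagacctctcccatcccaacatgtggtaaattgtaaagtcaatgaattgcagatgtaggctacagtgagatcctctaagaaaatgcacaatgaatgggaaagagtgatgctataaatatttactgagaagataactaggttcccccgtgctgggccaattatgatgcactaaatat

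To ask which Wnt pathway elements were open in mESCs compared to MEFs, the counts of each platform were tested over all its peaks with edgeR's quasi-likelihood test (TMM normalization, Benjamini-Hochberg adjusted p under 0.05, two-sided), and fold changes are mESC over MEF on the log2 scale. On BGI, 98 member peaks were higher in mESCs, 115 were lower and 63 were not called, which is 35.5% higher and 41.7% lower, beside 40.9% and 43.2% of all peaks. On Illumina, 100 were higher, 119 lower and 61 not called, or 35.7% and 42.5% beside 42.1% and 42.4% of all peaks. The median log2 fold change of the member peaks was -0.10 on BGI and -0.06 on Illumina, beside -0.08 and -0.03 over all peaks. The highest and lowest samples of the 2 cell types did not overlap at 218 of 276 member peaks on BGI (79.0%, beside 85.1% of all peaks, of which 84.1% were called) and at 228 of 280 on Illumina (81.4%, beside 85.6% and 84.5%). Thus, both cell types had open elements of their own at these genes, and the shares called were below those of the genome except for lower peaks on Illumina, where they were nearly equal. When libraries were scaled by their down-sampled depths instead, the median over all peaks became 0.06 on BGI (from -0.08) and 0.09 on Illumina (from -0.03), and 109 member peaks were higher and 106 lower on BGI. The shares of all peaks called under this scaling are not given here, so these 2 counts are not read against the genome. Of the 276 BGI peaks, 240 had an Illumina peak covering at least 50% of their width, and of these 180 were called in the same direction on both platforms, 0 in opposite directions, 4 on BGI alone, 13 on Illumina alone and 43 on neither. Both platforms read the same 6 libraries, so this counts repeated sequencing and not new samples.

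**Figure D1:**
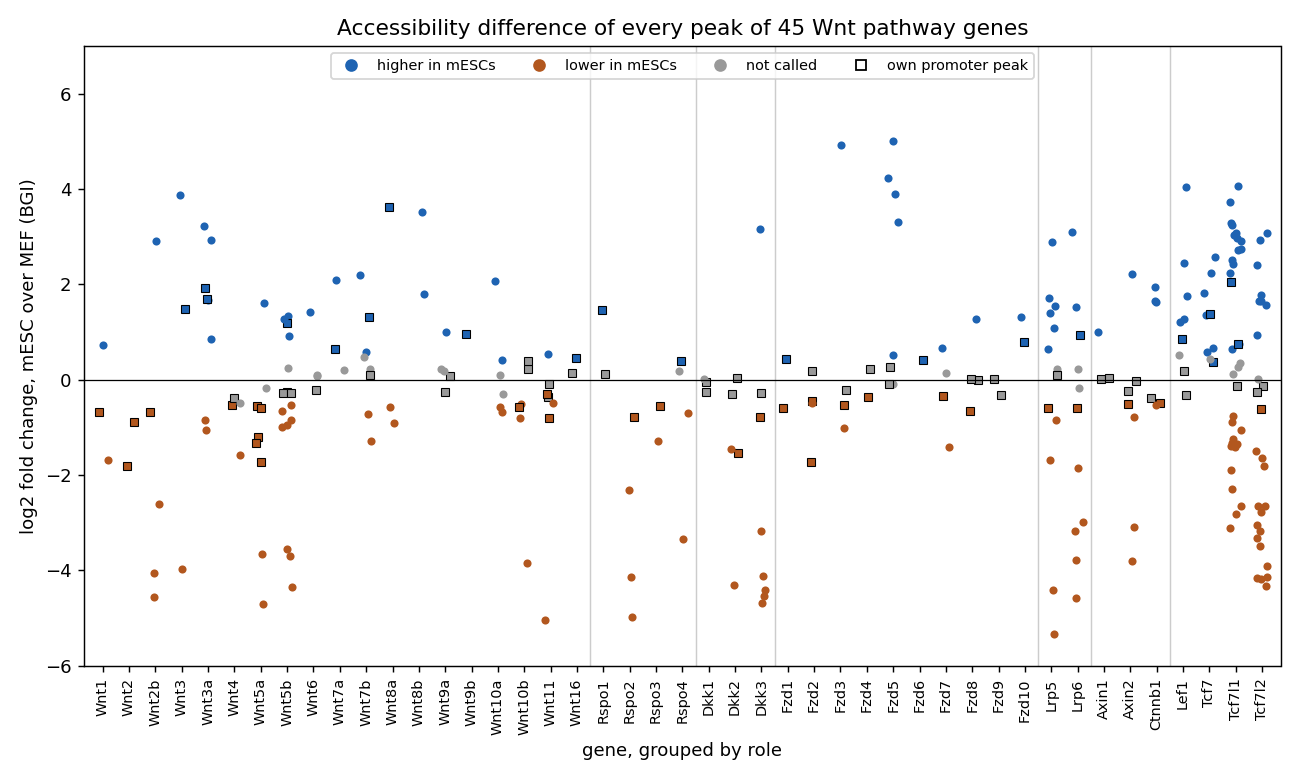
Log2 fold change (mESC over MEF, BGI; y axis) of every peak of the 45 Wnt pathway genes (x axis, grouped by role), with blue for higher in mESCs, orange for lower, gray for not called and squares for a gene's own promoter peaks. Promoter squares crowd around 0, whereas peaks elsewhere in the same genes reach 5.02 and -5.33.

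The position of a peak within the gene separated small from large differences. Own promoter peaks, which lay within 1 kb of a transcription start site (TSS) of the member, had a median absolute log2 fold change of 0.40 on BGI, and 20 of 88 were higher and 29 lower. The 188 peaks away from the own promoters had a median absolute log2 fold change of 1.66, with 78 higher and 86 lower. A change of at least 1 on the log2 scale was called at 9 higher and 6 lower promoter peaks, but at 63 higher and 65 lower peaks elsewhere. In either direction it was called at 34.1% of all promoter peaks and 77.1% of all peaks elsewhere. Among all peaks, a promoter peak lay within 1 kb of a TSS of any gene, a wider class that held 103 member peaks on BGI. At this size lower member peaks did not outnumber higher ones, with 72 higher and 71 lower in all on BGI and 74 and 63 on Illumina. The share of all peaks in each direction at this size is not given here, so this balance is not read as a trait of the members. Over all peaks of the genome, 31.3% of promoter peaks were higher and 41.0% lower, and 45.5% and 44.3% of the peaks elsewhere. Among member peaks by annotation, 19 of 29 exonic peaks (65.5%) were higher in mESCs and 7 lower, whereas 36 of 110 intronic peaks (32.7%) were higher and 61 (55.5%) lower. Of all exonic peaks 56.8% were higher and 29.2% lower, and of all intronic peaks 42.9% were higher and 48.3% lower. Reproducible-peak lists of the 2 cell types on BGI held 93 member peaks in MEFs only, 89 in mESCs only and 94 in both (33.7%, 32.2% and 34.1%, beside 32.8%, 36.4% and 30.8% of all peaks). On Illumina these were 77, 103 and 100 (27.5%, 36.8% and 35.7%, beside 31.1%, 37.6% and 31.3%).

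On BGI the most open promoters belonged to Axin1, Fzd7, Fzd1, Fzd5 and Fzd4, and no ligand promoter had a mean above 21.3 CPM in either cell type. Each member's promoter peak was taken as its own promoter peak with the highest mean CPM, and 43 of 45 genes had one, with none for Wnt8b and Wnt10a. On BGI, 9 promoter peaks were higher in mESCs, 15 lower and 19 not called, and on Illumina 8, 20 and 15, where 31.6% of all promoter peaks were higher and 42.4% lower. Only 4 of those called differed by at least 1 on the log2 scale on each platform. Over all own promoter peaks of the members, not only the most open, 15 of 88 (17.0%) did so on BGI and 16 of 95 (16.8%) on Illumina, beside 34.1% and 33.0% of all promoter peaks. The 4 on BGI were Wnt8a, Wnt3a, Wnt3 and Wnt2, all of them ligands. Promoter peaks differ in GC content, with which the platforms' counts moved (described further on), so levels between genes, all over peaks of equal width, compare only roughly. Besides the promoter peaks, the 12 highest and the 12 lowest member peaks called alike on both platforms were named by rule, and any other peak named below was chosen after its values were seen.

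**Figure D2:**
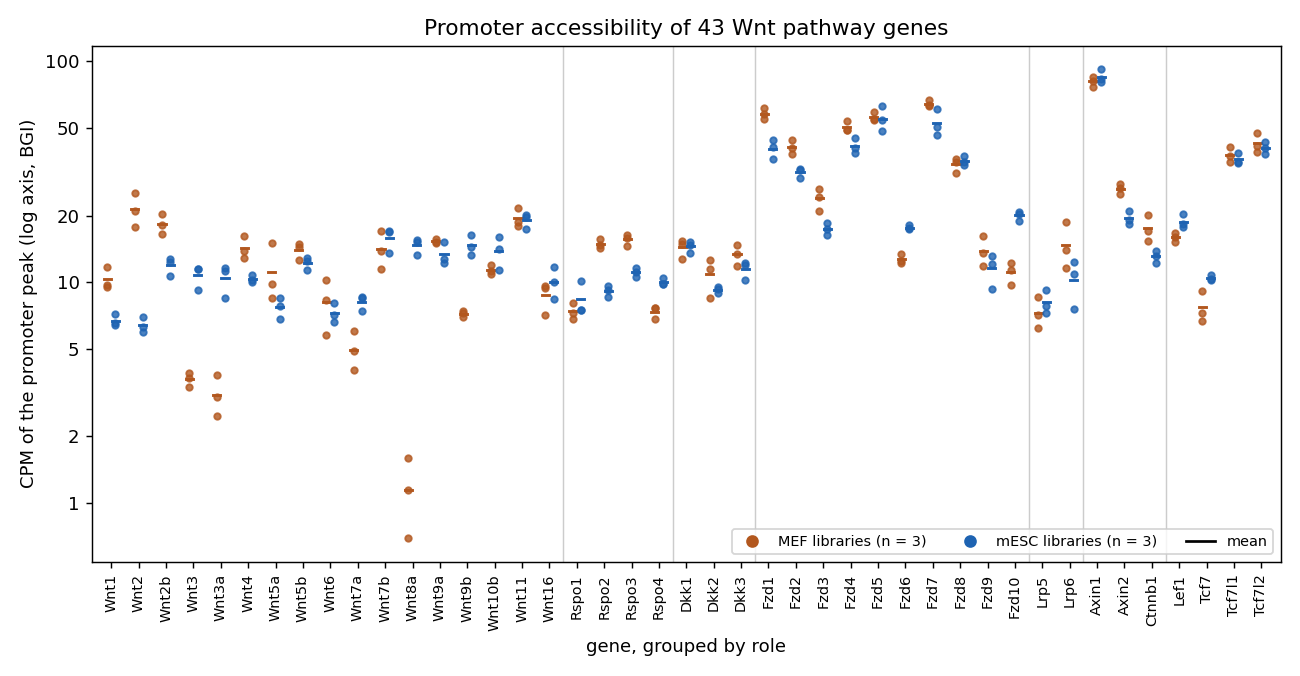
CPM of the promoter peak (y axis, log scale, BGI) of 43 Wnt pathway genes (x axis, grouped by role), with 3 MEF libraries in orange, 3 mESC libraries in blue and bars for the means. Axin1, Fzd7, Fzd1, Fzd5 and Fzd4 lie at the top, and the wide gaps at Wnt8a, Wnt3a, Wnt3 and Wnt2 stand out.

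The ligands Wnt3, Wnt3a and Wnt8a, which act in the canonical branch and are known from the primitive streak, had promoters that were more open in mESCs than in MEFs. The Wnt8a promoter peak (chr18:34541864-34542365, centred at -199 bp from the TSS) had a CPM of 0.692, 1.14 and 1.59 in MEFs and of 13.3, 15.3 and 15.5 in mESCs on BGI. The lowest mESC sample was thus far above the highest MEF sample, and the log2 fold change was 3.62 ± 0.24 (SE, n = 3 per cell type, adjusted p = 2.62e-10, edgeR) on BGI and 3.31 ± 0.23 on Illumina. The other 2 Wnt8a peaks on BGI, an intergenic and an exonic one, were lower in mESCs (-0.57 ± 0.16 and -0.92 ± 0.23). The Wnt3a promoter peak (chr11:59289798-59290299) had 3.0, 2.49 and 3.78 CPM in MEFs and 11.2, 8.46 and 11.6 in mESCs. The 2 ranges did not overlap, and the log2 fold changes were 1.69 ± 0.21 (adjusted p = 9.25e-07, edgeR) and 1.52 ± 0.20 on Illumina. The Wnt3 promoter peak (chr11:103773812-103774313) had 3.88, 3.33 and 3.68 CPM in MEFs and 11.5, 9.17 and 11.5 in mESCs, with log2 fold changes of 1.49 ± 0.19 (adjusted p = 9.94e-07, edgeR) and 1.36 ± 0.19. In the deposited peak calls, a summit was called within 1 kb of the Wnt8a TSS in 3 of 6 MEF samples, with a -log10 p between 3.35 and 13.1, and in 6 of 6 mESC samples, with 45.9 to 71.8. At Wnt3 and Wnt3a, such summits were called in 6 of 6 samples of both cell types, and their -log10 p was 9.98 to 19.95 in MEFs and 29.3 to 58.3 in mESCs at Wnt3. At Wnt3a it was 5.90 to 17.2 in MEFs and 29.4 to 55.2 in mESCs.

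At Wnt3a the opening went beyond the promoter. Of its 8 BGI peaks 6 were higher in mESCs and 2 lower, and the intronic peak whose sequence is given above (chr11:59282028-59282529) had 0.415, 0.646 and 0.896 CPM in MEFs and 6.68, 7.75 and 4.72 in mESCs, a log2 fold change of 3.22 ± 0.34. Counts summed over all its peaks gave 30.04 ± 1.1 CPM (SD, n = 3) in MEFs and 59.8 ± 0.89 in mESCs. Wnt3 instead held peaks of both kinds. Besides its promoter, a peak at its 3′ UTR (chr11:103816766-103817267) rose by 3.87 ± 0.30 but had no Illumina peak over 50% of its width, and an intronic peak 6177 bp from the TSS (chr11:103780077-103780578) had 13.7, 11.6 and 11.6 CPM in MEFs but 0.630, 0.946 and 0.870 in mESCs, a log2 fold change of -3.97 ± 0.24. Summed over its 3 peaks, Wnt3 was called higher on BGI (0.30 ± 0.12, adjusted p = 0.0310, edgeR) and lower on Illumina (-0.28 ± 0.10, adjusted p = 0.0148), each over its own peak set, and its summed level is therefore not assigned a direction. Wnt9b, known from kidney development, and Wnt7a also had a higher promoter in mESCs, with log2 fold changes of 0.96 ± 0.15 and 0.65 ± 0.20. The 2 peaks in reach of Wnt8b lay beyond its 3′ end, at the neighbor Sec31b, and were higher by 3.52 ± 0.32 and 1.79 ± 0.24 on BGI, so that they cannot be given to Wnt8b alone.

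Other ligands held peaks that were more open in MEFs. The Wnt2 promoter peak (chr6:18031428-18031929) had 17.7, 21.1 and 25.2 CPM in MEFs and 6.24, 5.91 and 6.96 in mESCs, and the 2 cell types lay wide apart. Its log2 fold change was -1.81 ± 0.15 (adjusted p = 5.65e-09, edgeR). At Wnt2b, 4 of 5 peaks were lower and 1 higher, and a peak at its 3′ UTR (chr3:104944885-104945386) had 30.7, 29.2 and 25.1 CPM in MEFs and 1.26, 1.12 and 1.37 in mESCs, with log2 fold changes of -4.57 ± 0.18 on BGI and -4.65 ± 0.21 on Illumina. Summed over its peaks, Wnt2b had the largest decrease of all 45 members on BGI (-1.60 ± 0.08), from 67.6 ± 2.2 to 22.6 ± 1.6 CPM.

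Wnt5a, the main non-canonical ligand, had 7 of 9 peaks lower in mESCs and 1 higher. A peak centred at -2619 bp from its first TSS (chr14:28501881-28502382) had 10.1, 7.60 and 7.27 CPM in MEFs and 0.315, 0.414 and 0.248 in mESCs, which is nearly closed, with a log2 fold change of -4.71 ± 0.33 on BGI and -5.16 ± 0.34 on Illumina. The peak at that TSS (chr14:28504508-28505009) had 13.1, 9.0 and 11.7 CPM in MEFs and 2.52, 4.26 and 3.91 in mESCs (-1.72 ± 0.22). By contrast, the most open Wnt5a promoter peak, at another TSS, fell by 0.59 ± 0.20 on the log2 scale (adjusted p = 0.0114, edgeR) and its call was lost without MEF 4 (-0.32, adjusted p = 0.0960) or mESC 1 (-0.50, adjusted p = 0.0526). Wnt11, which also acts without β-catenin, had a promoter peak that was not called (-0.09 ± 0.12), but held the ligand peak with the largest decrease on BGI. This intronic peak (chr7:98851185-98851686), whose sequence is given above, had 25.9, 23.1 and 29.1 CPM in MEFs and 0.567, 0.828 and 1.06 in mESCs, with a log2 fold change of -5.05 ± 0.21 (adjusted p = 8.67e-13, edgeR). Wnt5b, a close relative of Wnt5a, had 16 peaks on BGI, with 4 higher, 8 lower and 4 not called (6 higher and 9 lower of 17 on Illumina). Its lowest on BGI, just beyond its 3′ end (chr6:119431940-119432441), had 14.6, 11.7 and 12.3 CPM in MEFs and 0.946, 0.650 and 0.373 in mESCs (-4.35 ± 0.27).

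Over all 19 ligands, 30 of 96 BGI peaks were higher (31.2%, beside 40.9% of all peaks), 42 lower (43.8% beside 43.2%) and 24 not called. On Illumina 35 of 109 were higher (32.1% beside 42.1%), 46 lower (42.2% beside 42.4%) and 28 not called. Wnt1, Wnt4 and Wnt2b also had lower promoter peaks in mESCs, by 0.54 to 0.69 on the log2 scale, and no call on BGI was made at the promoter peaks of Wnt5b, Wnt6, Wnt7b, Wnt9a, Wnt10b, Wnt11 and Wnt16.

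The R-spondins and Dickkopf proteins, which tune the receptor from outside the cell, had more lower than higher peaks in mESCs. Of 12 R-spondin peaks on BGI 8 were lower (66.7%) and 2 higher, and of 16 Dickkopf peaks 9 were lower (56.2%) and 1 higher, beside 43.2% lower of all peaks. On Illumina 7 of 11 R-spondin peaks (63.6%) and 7 of 15 Dickkopf peaks (46.7%) were lower, beside 42.4% of all, and 2 of each were higher. The most open promoter peak of none of the 3 Dickkopf genes was called on either platform. Of Rspo2, all 4 peaks were lower. Its promoter peak (chr15:43170623-43171124) had 14.7, 15.7 and 14.3 CPM in MEFs and 8.57, 9.22 and 9.57 in mESCs, a log2 fold change of -0.78 ± 0.14 on both platforms, while an intronic peak (chr15:43158218-43158719) went from 6.28, 6.96 and 2.64 CPM to 0.252, 0.355 and 0.311 (-4.15 ± 0.46). Rspo3 had 2 peaks, both lower, with -0.56 ± 0.13 at the promoter (adjusted p = 0.000891, edgeR). The Rspo4 promoter peak was slightly higher in mESCs (0.38 ± 0.16, adjusted p = 0.0398), a call that was lost without any one of MEF 2, MEF 4, mESC 1, mESC 3 and mESC 5 (adjusted p between 0.0564 and 0.0883).

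Dkk3, a Dickkopf protein that unlike Dkk1 is not known as a classical Lrp6 blocker, had much larger differences in introns than at its promoter. Its most open promoter peak (chr7:112158854-112159355) was at 14.8, 11.9 and 13.4 CPM in MEFs and 12, 12.2 and 10.3 in mESCs, which overlapped, and was not called (-0.28 ± 0.15), while its other promoter peak (chr7:112158185-112158686) was lower by less than the introns (-0.79 ± 0.15). All 5 of its intronic peaks were lower, by 3.18 to 4.68 on the log2 scale. The one 3651 bp into the gene (chr7:112155156-112155657) had 11.7, 12.6 and 10.5 CPM in MEFs and 0.757, 0.355 and 0.435 in mESCs, and the one 16246 bp in (chr7:112142561-112143062) had 7.39, 8.0 and 6.12 against 0.189, 0.237 and 0.435. The only higher peak in reach of Dkk3 (3.16 ± 0.26) overlapped the 3′ UTR of its neighbor Usp47. Dkk2 likewise had an intronic peak (chr3:132117746-132118247) that was 9.0, 8.45 and 3.88 CPM in MEFs and 0.504, 0.473 and 0.124 in mESCs (-4.32 ± 0.44), where MEF 4 stood below the other MEF samples. None of the 3 peaks of Dkk1, the canonical Lrp5 and Lrp6 antagonist, was called on BGI, while 1 of its 4 peaks on Illumina was higher. Its promoter peak had 15.4, 12.8 and 14.9 CPM in MEFs and 14.8, 15.2 and 13.5 in mESCs.

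The highest Frizzled promoters were open in both cell types. Fzd7 had 64.1 ± 2.07 CPM (SD, n = 3) in MEFs and 52.5 ± 7.25 in mESCs, Fzd1 57.8 ± 3.32 and 40.2 ± 3.93, Fzd5 56.0 ± 2.52 and 54.9 ± 7.27, and Fzd4 50.5 ± 2.81 and 41.2 ± 3.38. On BGI the promoter peaks of Fzd1, Fzd2, Fzd3, Fzd4 and Fzd7 were lower in mESCs, by 0.35 to 0.59 on the log2 scale, those of Fzd6 and Fzd10 were higher, and those of Fzd5, Fzd8 and Fzd9 were not called. The calls of Fzd4 and Fzd7 were lost when libraries were scaled by their down-sampled depths, a scaling that moved the median of all peaks from -0.08 to 0.06. Fzd10 was the receptor with the largest promoter increase: 9.74, 11.3 and 12.2 CPM in MEFs against 18.9, 20.4 and 20.8 in mESCs, a log2 fold change of 0.79 ± 0.13 (adjusted p = 2.12e-05, edgeR) and 0.73 ± 0.12 on Illumina.

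Beyond the promoters, Fzd5 held a run of mESC elements at its 3′ end. A peak over its 3′ UTR (chr1:64733389-64733890) had 0.508, 0.845 and 0.846 CPM in MEFs and 13.1, 16.3 and 14.0 in mESCs, and a further one (chr1:64732150-64732651) had 0.923, 0.994 and 0.946 against 15.3, 14.1 and 15.8. Their log2 fold changes were 4.23 ± 0.24 and 3.90 ± 0.21. A peak between them (chr1:64732739-64733240) rose by 5.02 ± 0.24, the largest value of any member peak on BGI, but had no Illumina peak over 50% of its width and is named after its value was seen. Another, beyond the annotated end of the gene (chr1:64730040-64730541), rose by 3.31 ± 0.34. Hence 5 of 8 Fzd5 peaks on BGI were higher and none was lower (5 and 1 of 9 on Illumina), while its promoter peak was not called (58.9, 54.8 and 54.3 CPM against 54.2, 62.6 and 48.1). Over all members, 15 peaks on BGI lay over the member's own 3′ UTR and outside promoters, of which 8 were higher and 5 lower, beside 57.2% higher and 27.5% lower of all such peaks.

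Fzd3 combined both directions. Its promoter peak fell from 21.0, 24.3 and 26.5 CPM to 18.5, 17.4 and 16.4 (-0.52 ± 0.12), but an intronic peak 16852 bp into the gene (chr14:65245361-65245862) rose from 0.277, 0.994 and 0.398 CPM to 19.5, 17.3 and 16.3. With a log2 fold change of 4.92 ± 0.29 (adjusted p = 4.85e-11, edgeR) and 5.11 ± 0.26 on Illumina, this was the highest member peak called on both platforms. Summed over its 4 peaks, Fzd3 was not called (-0.07 ± 0.07, adjusted p = 0.377). Lower Frizzled peaks were less extreme, and the lowest was centred at -1097 bp from the Fzd2 TSS (chr11:102603049-102603550), with 14.0, 13.3 and 17.3 CPM in MEFs and 4.60, 4.85 and 4.53 in mESCs (-1.74 ± 0.17).

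The co-receptors Lrp5 and Lrp6 had the largest decreases among the receptors, in introns and downstream sequence. The Lrp5 intronic peak whose sequence is given above (chr19:3642485-3642986) had 18, 18.8 and 25.5 CPM in MEFs and 0.820, 0.177 and 0.621 in mESCs, and its log2 fold change of -5.33 ± 0.28 (adjusted p = 1.65e-11, edgeR) was the lowest of all member peaks on BGI. Another Lrp5 intronic peak (chr19:3638543-3639044) had 19.1, 15.8 and 11.6 against 1.20, 0.414 and 0.683 CPM (-4.41 ± 0.30). The most open Lrp5 promoter peak was another one on each platform, not called on BGI (0.09 ± 0.18) and lower on Illumina (-0.80 ± 0.16), and the second promoter peak on BGI was also lower (-0.60 ± 0.21). Other Lrp5 peaks rose, so that of its 13 peaks 6 were higher, 5 lower and 2 not called. Lrp6 had 3 peaks higher and 6 lower of 11. Its lowest lay beyond the 3′ end (chr6:134444199-134444700) with 10.6, 11.1 and 14.0 CPM in MEFs and 0.441, 0.473 and 0.621 in mESCs (-4.59 ± 0.26), and its highest was intronic (chr6:134515363-134515864) with 0.831, 0.994 and 1.49 against 7.19, 9.76 and 12.6 (3.09 ± 0.28). The Lrp6 promoter peak fell by 0.59 ± 0.19 on BGI and by 0.29 ± 0.11 on Illumina.

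Among β-catenin and the Axins, the core of the canonical relay, the promoter peaks of Ctnnb1 and Axin2 were lower in mESCs on BGI and that of Axin1 was not called. Axin1, a scaffold of the destruction complex, had the most open promoter peak of all members, with 84.9, 76.8 and 81.5 CPM in MEFs and 80.4, 91.8 and 83.1 in mESCs, and was not called (adjusted p = 0.969, edgeR). The Ctnnb1 promoter peak (chr9:120933285-120933786) fell from 16.9, 15.4 and 20.2 to 13.9, 13.1 and 12.2 CPM (-0.49 ± 0.14), whereas a pair of peaks beyond its 3′ end, in introns of the neighbor Ulk4, rose by 1.94 ± 0.27 and 1.62 ± 0.22. Axin2, a feedback inhibitor and a much used target gene of the pathway, had a lower promoter peak in mESCs, with 26.7, 25.1 and 27.7 CPM in MEFs and 19.2, 20.9 and 18.3 in mESCs (-0.51 ± 0.11, adjusted p = 0.00031). An Axin2 peak beyond its 3′ end (chr11:108952220-108952721) was at 7.94, 8.40 and 6.97 CPM in MEFs and 0.504, 0.591 and 0.621 in mESCs (-3.81 ± 0.29). Summed over its 7 peaks, Axin2 fell by 0.67 ± 0.07 on BGI and by 0.47 ± 0.07 on Illumina.

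The TCF/LEF factors, the DNA-binding end of the pathway, held 79 of the 276 member peaks on BGI, with 39 higher (49.4%, beside 40.9% of all peaks), 29 lower (36.7% beside 43.2%) and 11 not called. On Illumina 35 of 72 were higher (48.6% beside 42.1%), 28 lower (38.9% beside 42.4%) and 9 not called. The 4 genes differed from each other. At Tcf7, 8 of 9 peaks were higher and none lower, and at Lef1 6 of 9 were higher and none lower. Tcf7 encodes TCF1 and Lef1 encodes LEF1, which mostly activate with β-catenin. A Tcf7 peak at its TSS (chr11:52282319-52282820) had 4.25, 4.67 and 4.43 CPM in MEFs and 12.4, 11.0 and 13.1 in mESCs (1.38 ± 0.17), and an upstream peak (chr11:52286350-52286851) had 1.66, 1.69 and 1.99 against 10.2, 7.45 and 8.88 (2.24 ± 0.23). The most open Tcf7 promoter peak differed less (0.38 ± 0.17, adjusted p = 0.0474, edgeR), was lost without any one BGI library except MEF 2 (adjusted p between 0.0600 and 0.112) and was not called on Illumina (0.05 ± 0.14). A Lef1 peak at the gene's 5′ end (chr3:131110031-131110532) had 5.68, 6.06 and 7.12 CPM in MEFs and 12.2, 11.9 and 11.5 in mESCs (0.85 ± 0.16), and the intronic peak 101965 bp into the gene (chr3:131212186-131212687) had 0.138, 0.149 and 0.448 against 3.34, 4.55 and 4.97, with no Illumina peak over 50% of its width. Summed over their peaks, Tcf7 rose by 1.12 ± 0.07 (35.9 ± 1.9 to 78.8 ± 4.4 CPM) and Lef1 by 0.78 ± 0.07 (43.5 ± 4.6 to 75.7 ± 2.2 CPM).

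**Figure D3:**
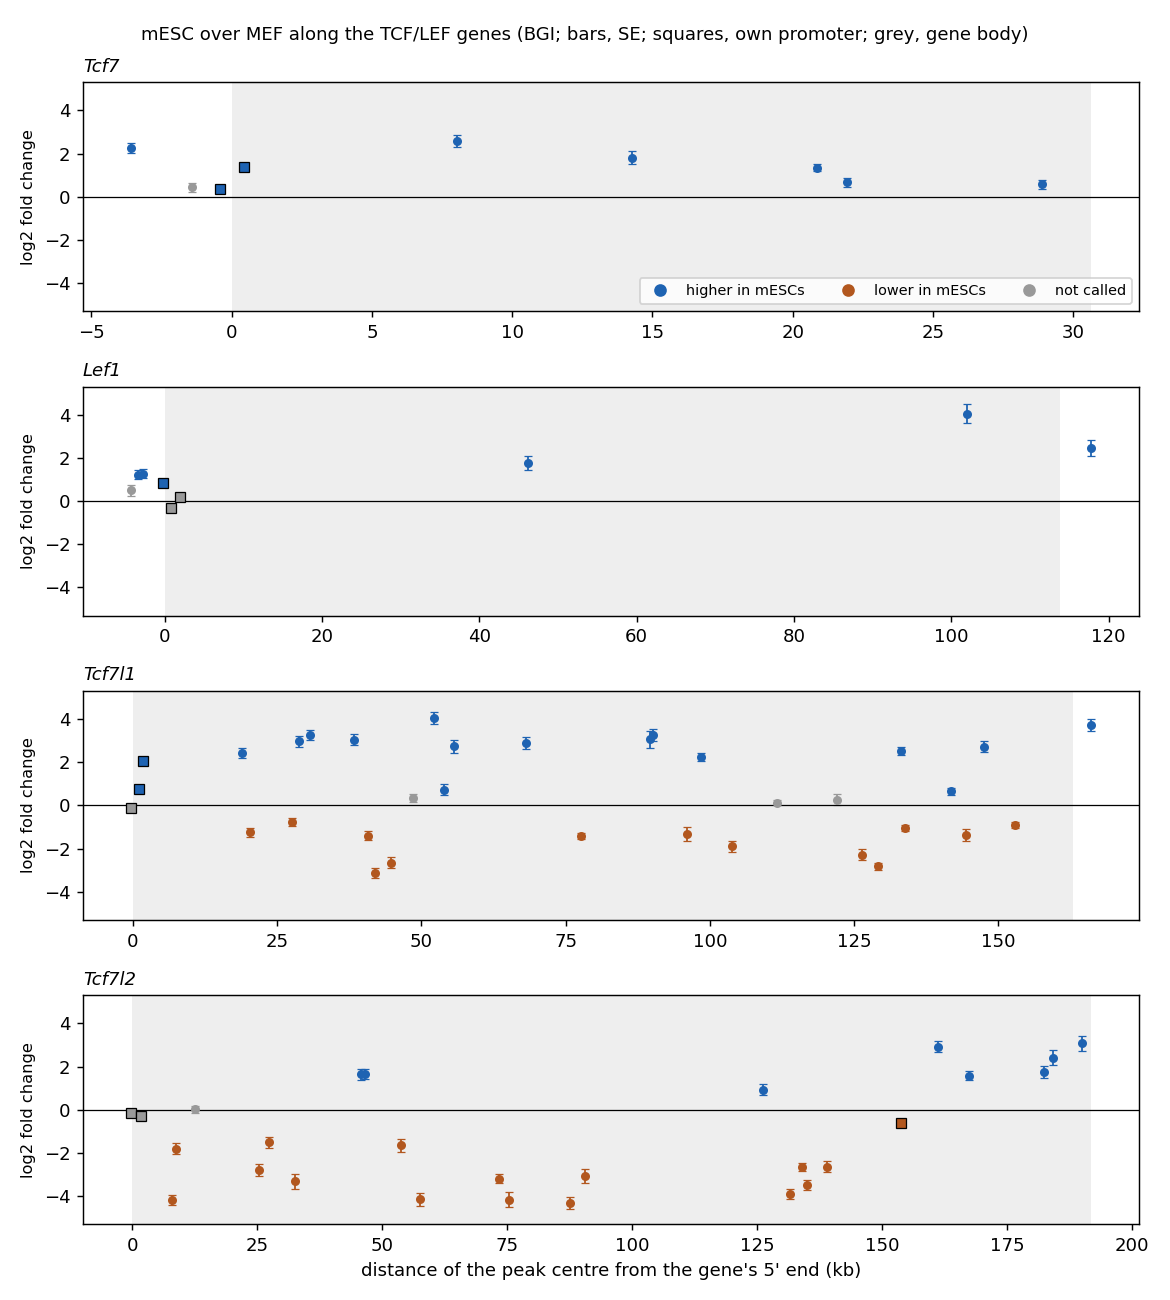
Log2 fold change (mESC over MEF, BGI; y axis, bars SE) of each peak of Tcf7, Lef1, Tcf7l1 and Tcf7l2 against its distance from the gene's 5′ end (x axis, kb), with the gene body shaded. Tcf7 and Lef1 have no lower peak, Tcf7l1 alternates along its length, and Tcf7l2 is mostly lower up to 153740 bp and higher in its last 5 peaks.

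Tcf7l1, which encodes the repressor TCF3 of mESCs, had the most peaks of any member, 34 on BGI, with 17 higher, 13 lower and 4 not called. Higher and lower peaks alternated over the whole gene. The intronic peak whose sequence is given above (chr6:72736764-72737265) had 0.554, 0.746 and 0.349 CPM in MEFs and 9.65, 8.87 and 10.5 in mESCs (4.05 ± 0.29), whereas another one (chr6:72747112-72747613) had 13.7, 11.5 and 10.6 against 1.51, 1.30 and 1.49 (-3.12 ± 0.22). The promoter peak was not called on BGI (35.0, 37.0 and 41.0 CPM against 34.9, 38.3 and 34.7), but a peak 1770 bp into the gene (chr6:72787234-72787735) rose from 5.63, 4.87 and 6.92 to 21.9, 25.8 and 27.7 CPM (2.05 ± 0.15). On Illumina the most open promoter peak was another one, at the TSS, and was lower in mESCs (-0.48 ± 0.08). The sum over the gene rose slightly, from 284 ± 24 to 335 ± 27 CPM (0.22 ± 0.06, adjusted p = 0.00393, edgeR).

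Tcf7l2, which encodes TCF4, went the other way. Of 27 peaks on BGI, 16 were lower and 8 higher, and the gene's sum fell from 252 ± 0.31 to 147 ± 7.6 CPM (-0.79 ± 0.06 on BGI, -0.81 ± 0.05 on Illumina). The lower peaks lay up to 153740 bp from the gene's 5′ end, with 3 higher ones between them. The one 8073 bp in, whose sequence is given above (chr19:55749643-55750144), had 15, 12.8 and 13.9 CPM in MEFs and 0.946, 0.650 and 0.808 in mESCs (-4.18 ± 0.23), and the one 75367 bp in (chr19:55816937-55817438) had 7.39, 7.90 and 7.12 against 0.630, 0.177 and 0.497 (-4.16 ± 0.34). The last 5 peaks of the gene, from 161183 to 190012 bp, were instead all higher, by 1.57 to 3.07. The last one, over the 3′ UTR (chr19:55931582-55932083), had 0.692, 0.746 and 0.398 CPM in MEFs and 6.56, 3.90 and 5.96 in mESCs, and no Illumina peak covered 50% of its width. The main promoter peak was not called (41.5, 38.8 and 47.4 CPM against 40.3, 43.1 and 38.1).

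**Figure D4:**
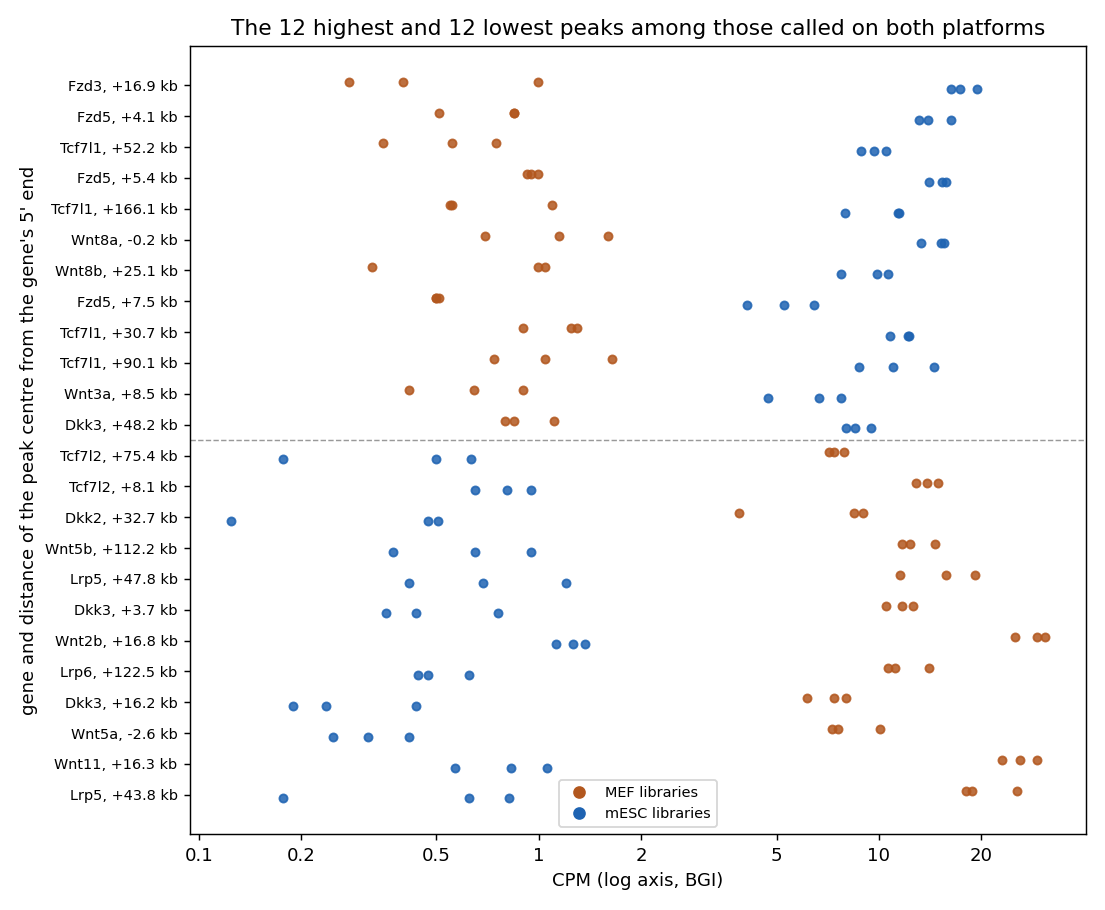
CPM (x axis, log scale, BGI) of the 12 highest and 12 lowest member peaks called in the same direction on both platforms, each named by its gene and the distance of its centre from the gene's 5′ end, with MEF libraries in orange and mESC libraries in blue. In all 24 the 3 libraries of one cell type lie apart from those of the other, on the log axis by more than the spread within either.

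Summed over all peaks of a gene, 18 of the 45 members were higher in mESCs, 20 lower and 7 not called on BGI, where 38.5% of all protein-coding genes with a peak were higher and 37.6% lower. On Illumina 14 were higher, 21 lower and 10 not called, beside 37.9% and 38.2% of all. On BGI the largest increases besides Wnt8b were at Tcf7, Wnt7a (1.06 ± 0.12), Fzd10 (1.01 ± 0.10) and Wnt9b (1.0 ± 0.15), and the largest decreases at Wnt2b, Rspo2 (-1.53 ± 0.14), Wnt2 (-1.33 ± 0.11) and Dkk3 (-1.22 ± 0.07). The order differed on Illumina, where Wnt9b had the largest increase (1.13 on the log2 scale) and Rspo2 the largest decrease (-1.34). A sum hides genes whose peaks differ in direction, and 22 of the 45 had peaks called in both directions on BGI, 13 only higher ones, 8 only lower ones and 2 (Dkk1 and Fzd9) none called. Of the 17179 protein-coding genes with a peak, 44.9% had both, 23.7% only higher, 24.4% only lower and 7.09% no called peaks, with a median of 3 peaks a gene beside 4 for the members. Peaks of several members are also in reach of a neighbor, such as Nsf at Wnt3, Ccnyl1 at Fzd5 and Fbxl14 at Wnt5b, and accessibility does not tell which gene a peak acts on.

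Short motifs were searched on both strands in the whole of each peak. AP-1 (TGANTCA) matched 27.0% of the 115 lower and 20.4% of the 98 higher member peaks on BGI, beside 35.6% and 18.6% of all lower and higher peaks. TCF/LEF (CTTTGAT) matched 7.83% of the lower and 4.08% of the higher member peaks (6.08% and 6.6% of all), POU (ATGCAAA) 6.09% and 13.3% (8.14% and 11.2%), and SOX (CATTGTT) 6.96% and 6.12% (6.65% and 7.39%). Added after the data were seen, the nuclear receptor half-site (AAGGTCA) matched 2.61% of the lower and 9.18% of the higher (6.69% and 13.6% of all), TEAD (GGAATG) 35.7% and 29.6% (37.4% and 29.0%), and KLF (GGGNGTG) 45.2% of the lower and 49 of the 98 higher (37.2% and 46.2% of all). Counts behind these shares were small, with 4 higher and 9 lower member peaks holding a TCF/LEF match. None of the 6 printed stretches held a TCF/LEF, POU or SOX match. AP-1 was found in those of Wnt3a and Fzd3, which were higher in mESCs, and of Tcf7l2, which was lower.

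A further 54 genes of the pathway formed a second list, with secreted or surface inhibitors, the R-spondin axis, ligand secretion, the non-canonical branch, the cytoplasmic relay, nuclear cofactors and target genes. On BGI, 138 of their 393 peaks were higher (35.1%), 178 lower (45.3%) and 77 not called, close to the members' shares and beside 40.9% and 43.2% of all peaks. The 2 genes for ligand secretion, Porcn and Wls, had 1 of 11 peaks higher and 6 lower, and the 11 non-canonical genes 52 of 143 higher and 72 lower. At promoters, 12 of 52 were higher and 20 lower, where 31.3% and 41.0% of all promoter peaks were. The largest increases called on both platforms were at Cdx1, a target gene (1.62, 1.29 and 1.79 CPM in MEFs against 18.2, 19.2 and 17.6 in mESCs, 3.48 ± 0.19), Celsr1, a planar polarity cadherin (1.89 ± 0.12), and Kremen2, a Dickkopf receptor (1.73 ± 0.20). The largest decreases were at the secreted Wnt antagonists Wif1 (24.0, 25.9 and 27.5 against 14.2, 11.4 and 10.7 CPM, -1.16 ± 0.13) and Frzb (-0.80 ± 0.14) and at Csnk1e, a casein kinase of the relay (-0.95 ± 0.12).

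To ask whether the sequencer changed the picture, BGI and Illumina samples of the same library were compared on the BGI peak set. Without pairing, 25 of 276 member peaks were called in MEFs (9.06%, beside 4.9% of all peaks) and 6 in mESCs (2.17% beside 0.868%), all of them lower on BGI, as were 4.81% and 0.823% of all peaks. These counts depended on single libraries: they fell to 7 without MEF 1 and 10 without MEF 2 in MEFs, and to 0 without mESC 1 or mESC 5, 1 without mESC 3 and 3 without MEF 2 in mESCs. They also moved with RLE size factors in MEFs and with DESeq2 in mESCs, as given further below. With the library as a block, 70 were called in MEFs (10 higher and 60 lower on BGI; 25.4% beside 17.7% of all, of which 4.84% higher and 12.9% lower) and 47 in mESCs (19 higher and 28 lower; 17.0% beside 15.8%, of which 9.65% higher and 6.12% lower), the latter count falling to 28, 27 and 18 without mESC 1, mESC 3 and mESC 5. None of these reached 1 on the log2 scale in either fit. The lower peaks were GC-rich: of the 76 member peaks with at least 60% GC, 50 were lower on BGI in MEFs and 27 in mESCs under the block, which is 65.8% and 35.5% beside 61.8% and 34.0% of all such peaks. With the GC content as an offset beside the block, 25 and 8 were called (8.08% and 3.59% of all). The platform difference itself differed between the cell types at 0 member peaks without the block (0.0% of all peaks; 8 at an unadjusted p under 0.05) and at 2 with it (0.725% beside 0.386%), and both calls were lost without any one library except MEF 4. The Wnt9a promoter peak (chr11:59306618-59307119, 80.3% GC) had 15, 15.7 and 15.1 CPM on BGI and 27.8, 27.6 and 31.6 on Illumina in MEFs, a log2 ratio of -0.99 ± 0.07, and 12.7, 15.1 and 12.2 against 18.6, 25.9 and 23.9 in mESCs (-0.72 ± 0.08). The Axin1 peak just inside its TSS (chr17:26138802-26139303, 76.1% GC) had 17.1, 14.4 and 20.1 CPM on BGI and 31.5, 30.7 and 33.1 on Illumina in MEFs (-0.95 ± 0.06), and 18, 18 and 19.1 against 27.5, 27.3 and 26.9 in mESCs (-0.52 ± 0.07). In each of these libraries BGI was below Illumina, while on BGI the 2 cell types overlapped at both the Wnt9a and the Axin1 peak.

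**Figure D5:**
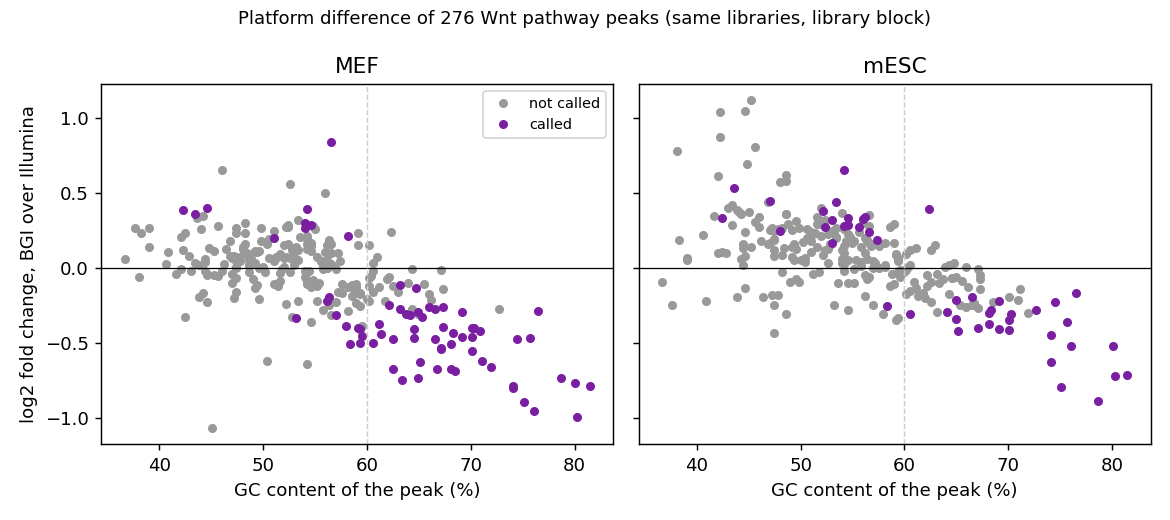
Log2 ratio of BGI to Illumina (y axis, library block, BGI peak set) of the 276 member peaks against their GC content (x axis, %), in MEFs (left) and mESCs (right), with called peaks in purple and a dashed line at 60% GC. Called peaks below 0 gather to the right of the line in both cell types.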

How the data were processed

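The members and the gene lists were chosen with earlier results of these data known. Per the study's methods, reads were trimmed with Cutadapt (Illumina reads from 150 to 100 bp), aligned to GRCm38 (mm10) with Bowtie2 and filtered, and every MEF sample was down-sampled to 60000000 reads and every mESC sample to 45000000. The authors called peaks with MACS2 per sample, merged reproducible peaks of fixed width and deposited raw read counts per peak, which were used here. The deposited peak calls of each sample also hold a score, a fold enrichment ratio and −log10 p values, of which only summit positions and −log10 p were used.

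Counts were tested over all peaks of a platform with edgeR 4.0.16 in R 4.3.3 (TMM, default filter on low counts, quasi-likelihood F test, Benjamini-Hochberg adjusted p under 0.05), with DESeq2 1.42.0 as an alternative. CPM are counts scaled to the total reads in peaks of a sample, without TMM factors. For gene sums, the counts of all peaks within 5 kb of the gene body were added and tested in the same way. Peaks were named by rule as the most open promoter peak of each member (within 1 kb of a TSS) and the 12 highest and 12 lowest peaks called alike on both platforms, and 3 promoter peaks in each direction for the other pathway genes. Platforms were compared on the BGI peak set. Samples with the same number came from the same library, and their deviations from the group means correlated between 0.453 and 0.727, against -0.539 to 0.118 for different numbers, so the library was also fitted as a block. Scripts were tested on simulated data. The paper describes the 3 libraries of each cell type as biological replicates. Neither it nor the labels tell whether these came from separate animals or cultures. The p-values measure the spread between these libraries. Alternatives were other scalings, filters, gene body extensions and leaving out libraries. Counts made within 1 cell type by the authors were not used here.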

Additional observations from a re-analysis of the deposited data

Results flagged for a closer look

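The platform difference itself differed between the cell types at 2 member peaks when the library was fitted as a block. At the Axin1 peak just inside its TSS (chr17:26138802-26139303), the log2 ratio of BGI to Illumina was -0.95 ± 0.06 in MEFs and -0.52 ± 0.07 in mESCs, a difference of 0.43 ± 0.10 (adjusted p = 0.0244, edgeR interaction term, n = 3 libraries per cell type), and BGI was lower in 6 of 6 libraries. At the Fzd8 promoter peak at chr18:9212452-9212953, MEF libraries had 8.45, 9.29 and 12.4 CPM on BGI and 14.0, 14.9 and 16.9 on Illumina, whereas mESC libraries had 12.1, 10.2 and 9.5 against 12.9, 12.9 and 9.29. There the difference was 0.58 ± 0.13 (adjusted p = 0.0301). Neither was called without the block or with the GC offset, and under the block both calls were lost without any one library except MEF 4 (adjusted p between 0.0665 and 0.277, edgeR).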

How the results depend on the processing

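No paired analysis was possible because MEF and mESC libraries share only the number 1, for the comparison of the cell types. Among named peaks, 1363 of 1449 values over 132 peaks kept their direction and side of the threshold. With calls limited to a log2 fold change of at least 1, member peaks were 72 higher and 71 lower on BGI and 74 and 63 on Illumina (137 called in all), so that lower peaks no longer outnumbered higher ones, and peaks of the other pathway genes 105 and 116 on BGI and 102 and 102 on Illumina. No shares of all peaks by direction are given at this size, so these counts are not read as a trait of either list. For the platforms in MEFs, RLE size factors gave 11 calls, all 11 lower. Among the DESeq2 calls 1 was higher, where the main fit had 0 higher. With the replicate block there were 70 (10 higher, 60 lower), with the GC offset too 25 (7 and 18), and on the Illumina peak set 76 (11 and 65). In mESCs, DESeq2 gave 12, all 12 lower, the replicate block 47 (19 and 28), the block with the GC offset 8 (3 and 5), and the block on the Illumina peak set 52 (22 and 30). The interaction had 2 calls under the block, both higher. The share of all peaks called also moved between fits (in MEFs 4.9% without and 17.7% with the block) and is not given for each setting here. Platform counts of member peaks are therefore not compared between settings. Leaving out 1 library gave 7 to 26 platform calls in MEFs (7 without MEF 1, 10 without MEF 2) and 0 to 7 in mESCs (0 without mESC 1 or mESC 5, 1 without mESC 3), all lower on BGI. With the block kept, the calls without MEF 1, MEF 2 and MEF 4 were 56 (10 higher, 46 lower), 53 (3 and 50) and 63 (6 and 57) in MEFs and 47 (19 and 28), 49 (21 and 28) and 50 (22 and 28) in mESCs. Without mESC 1, mESC 3 and mESC 5 they were 68 (10 and 58), 65 (10 and 55) and 69 (10 and 59) in MEFs and 28 (8 and 20), 27 (3 and 24) and 18 (3 and 15) in mESCs. The interaction then had 1 call without MEF 2, 2 without MEF 4 and 0 without any other library. Leaving out a library left 204 to 212 member peaks called between the cell types on BGI and 207 to 218 on Illumina. Every sign change was at a promoter peak that was not called. With down-sampled depths these were on BGI Fzd5 (0.0495), Fzd8 (0.127), Dkk1 (0.0870), Tcf7l2 (0.00565), Tcf7l1 (0.0107) and Wnt11 (0.0464), and on Illumina Fzd5 (0.0490), Axin1 (0.0782), Tcf7l2 (0.110) and Wnt16 (0.1003). Fzd8 on BGI was 0.0236 with DESeq2, 0.0232 with RLE and 0.0113 with a mean count of at least 50, under which Tcf7l2 was 0.0180 and Wnt16 0.00704 on Illumina. Over the libraries left out, the value ranged on BGI from -0.170 to 0.00422 at Fzd5, -0.0246 to 0.238 at Wnt7b, -0.0309 to 0.0918 at Axin1, -0.0264 to 0.0308 at Fzd8, -0.0116 to 0.208 at Lrp5, -0.127 to 0.0552 at Dkk1 and -0.0374 to 0.207 at Rspo1, and on Illumina from -0.219 to 0.0119 at Fzd5, -0.0536 to 0.143 at Tcf7, -0.115 to 0.0665 at Tcf7l2 and -0.186 to 0.0772 at Wnt16. The causes of these changes were not tested.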
